A study of Mus musculus with 24 samples.

Results

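The MYC network is the set of basic helix-loop-helix leucine zipper transcription factors that pair with MAX or with its relative MLX. The 10 genes described here, Myc, Mycn, Mycl, Max, Mxd1, Mxd3, Mxd4, Mnt, Mlx and Mga, were taken by gene name from a table of 55385 genes, and 8 of them were among the 12183 genes abundant enough to test. Mycn and Mycl were not, and their counts are given as values. RNA was sequenced from P815, a mouse mastocytoma line, in 24 libraries that form 8 groups of 3. The NC libraries came from cells transfected with negative control vectors and the SH libraries from cells transfected with an shRNA against Esr1, the estrogen receptor alpha gene. ICI and Tamo cells received the estrogen receptor inhibitors ICI-182780 (fulvestrant) or tamoxifen for 24 h, and the labels do not say that these cells carried a vector. NC_E2, SH_E2, ICI_E2 and Tamo_E2 were the matching groups that also received β-estradiol (E2) for 24 h. No time is labelled for NC and SH without E2, and no dose for any agent. No vehicle-only group is labelled, and every library comes from the same cell line. The labels do not say that the 3 replicates of a group were separate cultures, so the p-values rest on the variation among these libraries and that variation may be technical only.

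MYC, MYCN and MYCL activate transcription as dimers with MAX at the E-box sequence CACGTG. MXD1, MXD3, MXD4 and MNT use the same partner and the same sites but bring in the SIN3 histone deacetylase corepressor, so the network is usually read as a competition for MAX. MNT, MXD1 and MXD4 can also pair with MLX, whose other partners MLXIP (MondoA) and MLXIPL (ChREBP) respond to glucose, and MGA joins MAX to a polycomb complex that silences germline genes.

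The E-box is the site at which these dimers bind, and it was also found in promoters of the network itself. RefSeq promoters on GRCm38.p6, from 250 bases before to 50 bases after a transcription start, were matched for 9 of the 10 members. Myc had no entry among these promoters. CACGTG is its own reverse complement, so 1 search covers both strands. It was present in 4 of the 9, those of Max, Mxd4, Mnt and Mlx, while 7.15% of all 32851 promoters and 8.09% of the 27025 genes with a promoter held it. The GC content of the 9 promoters ran from 55% to 76.7%, and these shares were not matched for it. The promoters of Mycn, Mycl, Mxd1, Mxd3 and Mga did not contain these letters within the window. The 30 bases around each match are shown 5′ to 3′ on the strand of the gene, with the E-box in capitals.
Max: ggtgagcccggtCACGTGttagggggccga
Mxd4: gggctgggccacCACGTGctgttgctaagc
Mnt: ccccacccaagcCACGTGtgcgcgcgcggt
Mlx: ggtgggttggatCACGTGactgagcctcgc
The windows lie at chr12:76962234-76962263 (minus strand), chr5:34187912-34187941 (minus strand), chr11:74830789-74830818 (plus strand) and chr11:101087238-101087267 (plus strand), in that order. The E-box begins 3 bases before the RefSeq start of Max, 40 before that of Mlx, 123 before that of Mnt and 219 before that of Mxd4. The search used the 6 capital letters alone, and a match describes the sequence without showing binding.

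Library depth ranged from 42059008 to 68793278 counts. Of 16 mast cell markers, 11 were above 1 FPKM (fragments per kilobase of gene length, scaled to library depth) in all 24 libraries, and Fcer1a, Ms4a2 and Tpsb2 were at 0 counts in some. Esr1, the target of the hairpin, was below the test filter of 1 FPKM in at least 3 libraries. It had 156 to 433 counts per library. It measured 0.181 to 0.347 FPKM in the 6 hairpin libraries and 0.187 to 0.435 in the 6 NC libraries, and these ranges overlap. By replicate number, Esr1 was at 0.404, 0.435 and 0.187 FPKM in NC and 0.347, 0.227 and 0.260 in SH. With E2 it was at 0.389, 0.319 and 0.234 in NC_E2 and 0.254, 0.181 and 0.210 in SH_E2. Macrophage and neutrophil markers summed to 29.8 to 36.1 FPKM in hairpin libraries and 22.6 to 26.1 in NC libraries. They summed to 21.0 to 26.1 in ICI libraries and 22.6 to 31.2 in Tamo libraries. Cd68 and Lyz2 were the 2 of 7 above 1 FPKM throughout, and S100a8 had 0 counts everywhere. Mast cell markers summed to 1089 to 1317 FPKM in hairpin libraries and 884 to 1171 in NC libraries. The part of these marker differences in the hairpin results below was not tested. In RNA from whole cultures, fewer cells making a transcript and less of it per cell cannot be told apart.

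Myc was the most abundant member. It measured 86.3 ± 9.97 FPKM (SD, n = 24 libraries), with a lowest value of 65.4 in SH replicate 1 and a highest of 106.8 in Tamo_E2 replicate 1. The gene lies on chromosome 15 (61985391 to 61990350, plus strand, in the authors' table on GRCm38). By group, Myc ran from 78.8 ± 13.0 FPKM (SD, n = 3) in SH to 92.5 ± 12.4 in Tamo_E2, a ratio of 1.17, and its libraries overlapped between all groups compared in pairs with NC or NC_E2. The other MYC paralogues were close to absent. Mycn had counts in 4 of 24 libraries, with at most 12 counts in any, and Mycl in 13 of 24, with at most 30 counts. MYCN and MYCL are known from neural tumours and small cell lung cancer, and in these mastocytoma libraries nearly all MYC-family transcript came from Myc.

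Max, the obligate partner, followed at 19.5 ± 3.84 FPKM (SD, n = 24), and Mlx, the MAX-like partner, at 16.7 ± 3.54. Myc was above Max in 24 of 24 libraries and Max above Mlx in 19, so the order of the latter 2 was less fixed than that of the former. The ratio of Myc to Max FPKM had a median of 4.25 and ran from 3.32 to 8.70. The highest ratio came from SH_E2 replicate 1, where Max was 8.95 FPKM against 18.1 and 19.0 in the other SH_E2 replicates.

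Of the 4 MAX-binding repressors among the 10 genes, Mnt had the highest level, at 12.7 ± 2.51 FPKM (SD, n = 24). Mlx exceeded it in 21 of 24 libraries, and Mnt exceeded Mxi1, a related repressor outside the 10 genes (10.4 ± 2.75), in 18. Mxd3 (2.97 ± 1.17), Mxd4 (2.82 ± 1.23) and Mxd1 (2.74 ± 1.31) were close together, as was Mga at 2.58 ± 0.561. These 4 could not be ordered: each exceeded the next in 12, 10 and 12 of 24 libraries. Myc stood at a median of 4.22 times the summed FPKM of Mxd1, Mxd3, Mxd4 and Mnt, with a range of 2.01 to 5.56. FPKM depends on the gene length used by the authors, and the lengths implied by count and FPKM were 3030 to 3051 bases for Myc, 9476 to 9534 for Mxd4 and 17112 to 17252 for Mga. Levels of genes whose main transcript is shorter than that length are therefore understated relative to the others. The plot of all 24 libraries shows the wide gap between Myc and the rest.

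**Figure D1:**
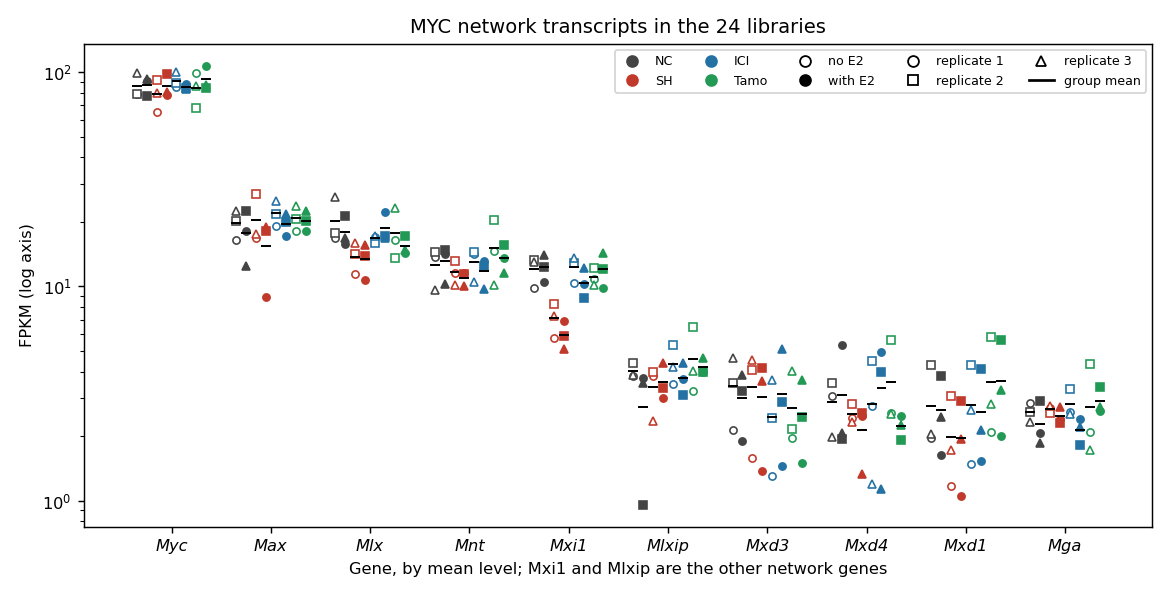
FPKM (log axis) of the 8 tested members and of Mxi1 and Mlxip in 24 libraries, with colour for the arm, filled symbols for E2, symbol shape for the replicate number and bars for group means. Myc lies between 65.4 and 106.8 FPKM in every library, above all other genes plotted, while Mxd3, Mxd4, Mxd1 and Mga overlap; Mycn and Mycl are not plotted.

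No member passed the test for E2. In edgeR's quasi-likelihood test, with Benjamini-Hochberg adjustment over 12183 genes and a threshold of 0.05, 0 of 8 members passed in NC, SH, ICI or Tamo cells, where the share of all genes called was 0%, 0%, 0% and 0%. Averaged over the 4 arms, 0 of 8 passed against 0.0575% of all genes. None of these comparisons had a member at an unadjusted p under 0.05, and DESeq2, limma and the fit with a replicate block also called 0. Myc differed by a log2 fold change of 0.05 ± 0.08 (SE) with E2 over the 4 arms, with a 95% interval of -0.11 to 0.21; the library with E2 had the higher value in 8 of 12 pairs of the same number. The lowest estimate was that of Max, at -0.19 ± 0.13, with an interval of -0.46 to 0.08. The intervals were wide for Mxd1 (-0.60 to 0.53) and Mxd3 (-0.58 to 0.54), so a change of that size in these genes was not detectable without the replicate block. With the block they were -0.16 to 0.09 for Mxd1 and -0.26 to 0.19 for Mxd3. The effect of E2 in hairpin cells minus that in NC cells, tested as an interaction, also called 0 of 8 members, with none at an unadjusted p under 0.05 and 0% of all genes called.

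No member passed for either antiestrogen. ICI against NC called 0 of 8 in edgeR (0.00821% of all genes) and Tamo against NC 0 of 8 (0.00821%). With E2 present, ICI_E2 against NC_E2 called 0 of 8 (0% of all genes), as did Tamo_E2 against NC_E2 (0%). ICI against Tamo called 0 of 8 without E2 (0% of all genes) and with E2 (0%). In all 6, edgeR had 0 members at an unadjusted p under 0.05, and DESeq2 and limma called 0. The fit with a replicate block also called 0, with at most 2 members at an unadjusted p under 0.05 in any of them. ICI and Tamo share the NC libraries as their reference, and so do ICI_E2 and Tamo_E2 the NC_E2 libraries. Fulvestrant and tamoxifen differ in structure and in action, the first being a steroidal receptor degrader and the second a nonsteroidal modulator, but their doses are not labelled, so the 2 can only be set side by side. Myc differed by 0.09 ± 0.15 (SE, log2) between ICI and Tamo, with a 95% interval of -0.23 to 0.42. Mxd1 was higher in Tamo replicate 2 (5.79 FPKM) and Tamo_E2 replicate 2 (5.59) than in any library of another arm. Its difference between ICI and Tamo was -0.35 ± 0.54, or -0.35 ± 0.12 with the replicate block (edgeR adjusted p = 0.449). Between ICI_E2 and Tamo_E2 the block gave -0.48 ± 0.12 (edgeR adjusted p = 0.672). For Tamo against NC it gave 0.33 ± 0.12 (edgeR adjusted p = 0.425), and for Tamo_E2 against NC_E2 0.43 ± 0.12 (adjusted p = 0.720). None of these passed.

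Among the group comparisons, members came nearest to a call in those with the hairpin, and some fits called them. In edgeR without the replicate block, SH against NC called 0 of 8 members, where 9.07% of all genes passed. SH_E2 against NC_E2 called 0 of 8, where 9.59% passed. In both of these fits, 1 member, Mlx, was at an unadjusted p under 0.05. With the block, edgeR called 2 of 8 and 1 of 8 members, where 21.1% and 21.9% of all genes passed, as given below. DESeq2 called 1 of 8 without E2, Mlx (adjusted p = 0.046), where it called 11.9% of all genes, and 0 of 8 with E2, where it called 12.4%. limma called 0 in both. A comparison of SH and SH_E2 with NC and NC_E2 together, added after the data were seen, called 1 of 8, again Mlx, against 20.7% of all genes. In edgeR and DESeq2, the members' share was below or near that of all genes in each of these comparisons.

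Mlx encodes the MAX-like partner and lies on chromosome 11 (101087277 to 101092207, plus strand). It measured 16.8, 17.7 and 26.2 FPKM in NC replicates 1, 2 and 3 and 11.4, 14.1 and 15.8 in the SH replicates. With E2 it measured 15.8, 21.3 and 16.9 FPKM in NC_E2 and 10.7, 13.8 and 15.5 in SH_E2. The hairpin libraries were thus below all their controls in either condition, without overlap, and lower in 6 of 6 same-numbered pairs. An exact rank test of 3 against 3 libraries cannot give a p below 0.1. The share of all genes separated in this way is not given here. Over both conditions together the ranges overlapped slightly, with hairpin libraries up to 15.849 FPKM and NC libraries from 15.847. The log2 fold change was -0.61 ± 0.21 (SE) without E2 (edgeR adjusted p = 0.0847) and -0.48 ± 0.21 with E2 (adjusted p = 0.194). Over both conditions it was -0.55 ± 0.15 (edgeR adjusted p = 0.0133). NC replicate 3 stood highest; without it the difference between SH and NC was -0.37 (adjusted p = 0.408), and that over both conditions -0.43 (adjusted p = 0.0496).

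Mlx shares 385 bases with Psmc3ip, a recombination gene on the opposite strand, and whether the authors' counting used strand is not given in the sources used here. Psmc3ip had a mean of 716 counts against 2070 for Mlx. Its own log2 fold change was -0.67 ± 0.40 (SE) in SH against NC (edgeR adjusted p = 0.367) and -0.63 ± 0.40 with E2 (adjusted p = 0.404). With a replicate block these were -0.75 (adjusted p = 0.0154) and -0.63 (adjusted p = 0.0397). The part of Psmc3ip reads in the Mlx result was not tested.

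Against the 12 antiestrogen libraries, the 6 hairpin libraries called 1 of 8 members in edgeR, where 28.2% of all genes passed. Mlx was the gene: -0.40 ± 0.13 (SE, log2), with an edgeR adjusted p of 0.0304. The 6 hairpin libraries are the same as in the comparisons with NC, so this is not a separate test of them. The ranges overlapped here, at 10.7 to 15.8 FPKM in hairpin libraries, 16.0 to 22.3 in ICI libraries and 13.6 to 23.2 in Tamo libraries. The call was lost without SH replicate 1 (edgeR adjusted p = 0.0875), without SH_E2 replicate 1 (0.0915) and without ICI_E2 replicate 1 (0.0505). In the fit without a replicate block, Mnt was at an unadjusted p under 0.05 but did not pass (-0.29 ± 0.13, edgeR adjusted p = 0.108), Mxd1 did not pass either (-0.71 ± 0.34, adjusted p = 0.137), and Mnt passed without Tamo replicate 3 (-0.35, adjusted p = 0.0338). With the block, edgeR called 3 of 8 members (Mxd1, Mnt and Mlx) against 41.8% of all genes, a share that the members did not exceed. Same-numbered libraries correlated above 0.1 in 21 of 24 pairs here, so the numbers do not pair these samples throughout.

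Mxi1, the remaining MAX-binding repressor of the MXD family and not among the 10 genes, passed in both hairpin comparisons. It measured 9.81, 13.3 and 13.0 FPKM in NC and 5.76, 8.29 and 7.23 in SH. In NC_E2 it measured 10.5, 12.3 and 14.1 FPKM and in SH_E2 6.89, 5.84 and 5.11. All 6 hairpin libraries (5.11 to 8.29 FPKM) were below all 18 others (8.78 to 14.3), and the share of all genes separated in this way is not given here. The log2 fold changes were -0.82 ± 0.18 (SE, edgeR adjusted p = 0.00624) and -1.10 ± 0.19 (adjusted p = 0.00057). With only the 6 libraries of the comparison in the fit, the first had an edgeR adjusted p of 0.0601. Mxi1 lies on chromosome 19 (53310518 to 53375810, plus strand), and whether other genes of that region fell with it was not tested. Mlxip, the MondoA gene, did not pass in either, at -0.31 ± 0.35 and 0.33 ± 0.35, and Mlxipl had 0 to 13 counts per library.

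Mxd1 and Mnt, repressors that compete with MYC for MAX, passed against NC only in fits with the replicate number as a block, Mnt only over both E2 conditions. Mxd1 measured 1.95, 4.30 and 2.04 FPKM in NC replicates 1, 2 and 3 and 1.17, 3.07 and 1.73 in SH. In NC_E2 it measured 1.64, 3.80 and 2.46 FPKM and in SH_E2 1.05, 2.92 and 1.93. The groups overlap, and Mxd1 was lower in the hairpin library in 6 of 6 same-numbered pairs. The share of all genes with 6 of 6 pairs in 1 direction is not given here. Without the block its log2 fold change was -0.53 ± 0.54 (SE) in SH against NC, and with the block -0.56 ± 0.12 (edgeR adjusted p = 0.00235). With E2 present the block gave -0.51 ± 0.12 (adjusted p = 0.00491).

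With the block, edgeR called 2 of 8 members in SH against NC (Mxd1 and Mlx, the latter at -0.61 with adjusted p = 0.0318), where 21.1% of all genes passed. It called 1 of 8 in SH_E2 against NC_E2 (Mxd1), where 21.9% passed; Mlx was at -0.49 (adjusted p = 0.0784). Over both conditions it called 3 of 8 against 35.2% of all genes: Mxd1 (-0.53 ± 0.08, adjusted p = 8.01e-05), Mlx (-0.55 ± 0.14, adjusted p = 0.00409) and Mnt (-0.22 ± 0.07, adjusted p = 0.0251). These shares are near those of all genes. Mnt was lower in hairpin cells in 5 of 6 pairs, with 13.8, 14.5 and 9.58 FPKM in NC, 11.6, 13.2 and 10.1 in SH, 14.1, 14.8 and 10.3 in NC_E2 and 11.6, 11.4 and 10.0 in SH_E2. Of the genes that passed with the block, Mlx and Mnt have the promoter E-box printed above, and the promoters of Mxd1 and Mxi1 in the table have none.

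Myc, Max, Mxd3, Mxd4 and Mga did not pass in either hairpin comparison, with or without the block. Myc measured 78.8, 79.2 and 99.1 FPKM in NC, 65.4, 91.4 and 79.6 in SH, 90.6, 77.7 and 92.9 in NC_E2 and 77.9, 98.3 and 81.1 in SH_E2. Hairpin libraries were lower in 4 of 6 pairs and the groups overlap. Its log2 fold changes were -0.18 ± 0.15 (SE; 95% interval -0.50 to 0.15) and -0.07 ± 0.15 (-0.39 to 0.25). Mga, the polycomb-linked member, differed by -0.01 ± 0.24 and 0.07 ± 0.24.

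**Figure D2:**
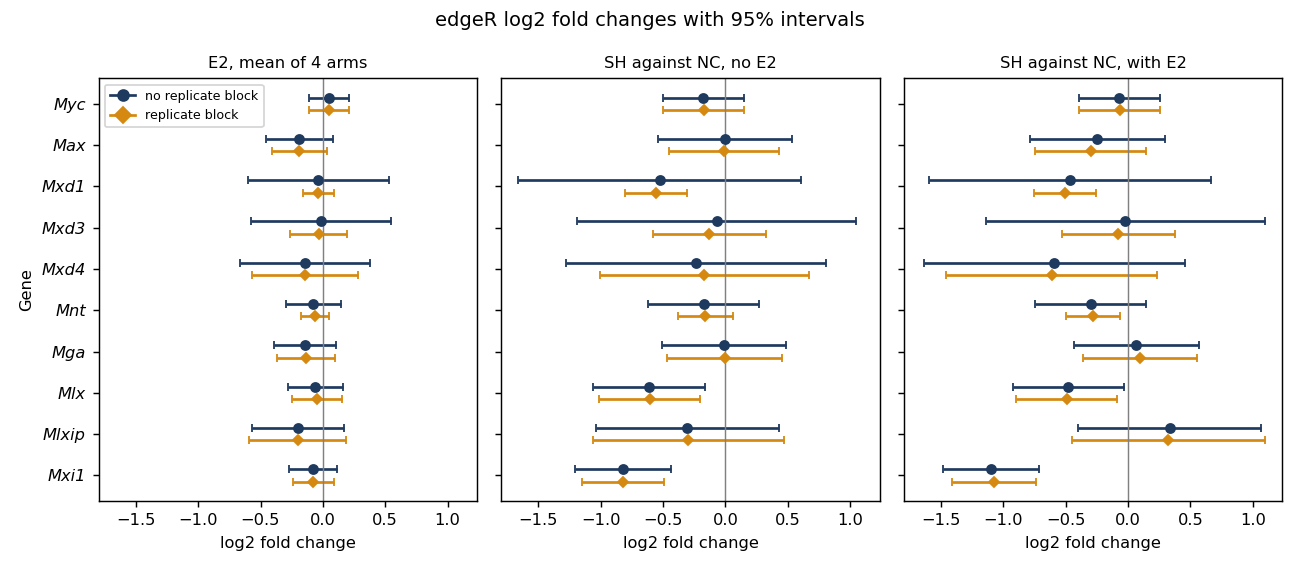
edgeR log2 fold changes with 95% intervals for 8 members and for Mlxip and Mxi1, without (circles) and with (diamonds) the replicate block, for E2 over 4 arms and for SH against NC without and with E2. Intervals for Mxd1 and Mxd3 narrow most with the block, and Mxi1 lies below 0 in both hairpin panels.

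**Figure D3:**
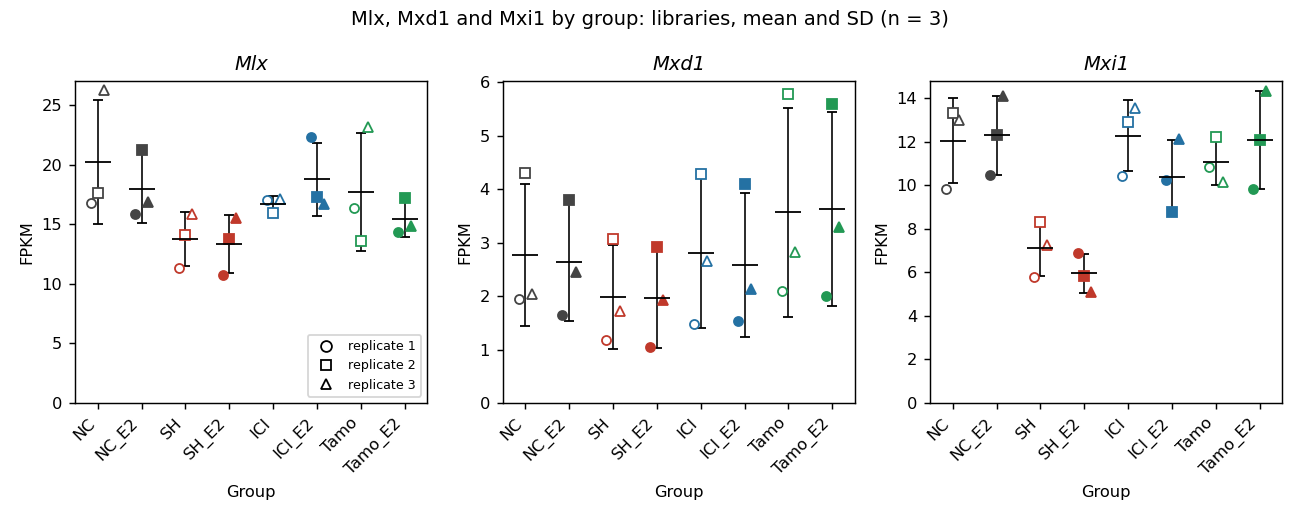
FPKM of Mlx, Mxd1 and Mxi1 in each library by group, with mean and SD (n = 3), symbol shape for the replicate number and filled symbols for E2. Mxi1 in SH and SH_E2 (5.11 to 8.29 FPKM) is below all other libraries, whereas Mxd1 overlaps between groups and differs between replicates within them.

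For Mxd1, Mxd3, Mxd4 and Mnt, the replicate number accounted for a larger share of the variance than the group did. A joint test of the number beside the groups, added after the data were seen, called 5 of 8 members in edgeR, against 51.4% of all genes. These were Mxd1 (adjusted p = 7.8e-10), Mxd3 (1.48e-06), Mnt (2.47e-05), Mxd4 (0.0193) and Max (0.0315). Without the SH groups it called 3: Mxd1, Mxd3 and Mnt. Myc (edgeR adjusted p = 0.708), Mlx (0.145) and Mga (0.156) did not pass.

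Mxd1 ran from 1.05 to 2.09 FPKM over the 8 replicate 1 libraries, from 2.92 to 5.79 over replicate 2 and from 1.73 to 3.30 over replicate 3. In every group replicate 2 was the highest, and the number accounted for 74.3% of its variance in log2 level, the group for 23.3%. Mxd3, a repressor known to be expressed in dividing cells, had a different order. It ran from 1.31 to 2.13 FPKM in replicate 1, 2.17 to 4.16 in replicate 2 and 3.61 to 5.08 in replicate 3, so all replicate 1 libraries were below all others. The number accounted for 82.4% of its variance and the group for 6.65%.

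Mxd3 shares 105 bases with the opposite-strand gene Prelid1, which had a mean of 24437 counts against 448 for Mxd3. Prelid1 also differed with the number (edgeR adjusted p = 0.0247), by 0.20 (log2) in replicate 3 against replicate 1, where Mxd3 differed by 1.35. Its part in the Mxd3 values was not tested. Mnt was lowest in replicate 3, at 9.58 to 11.5 FPKM, while replicates 1 and 2 ran from 11.4 to 20.4. Mxd4 was also lower in replicate 3 than in replicate 1, by a log2 fold change of -0.77, with 1.13 to 2.53 FPKM in replicate 3 and 1.92 to 5.62 in the others. Whether the number marks a culture date, an extraction or a sequencing run is not labelled.

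**Figure D4:**
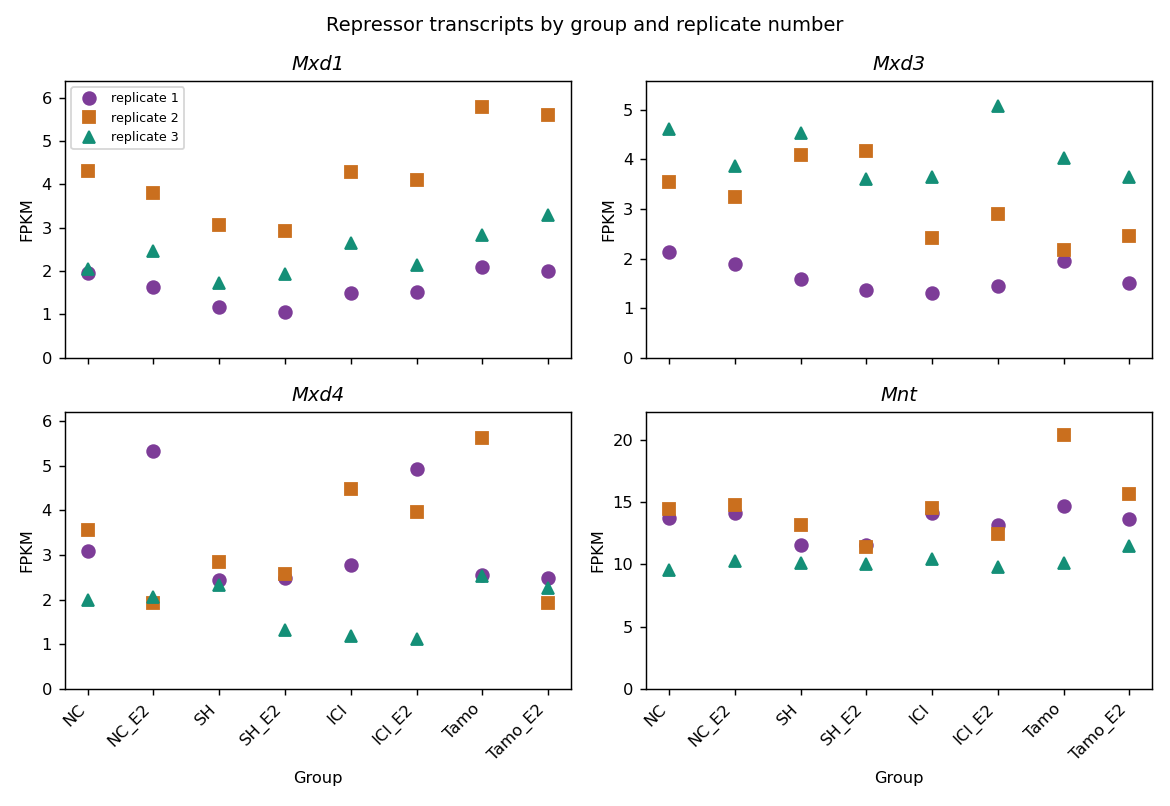
FPKM of Mxd1, Mxd3, Mxd4 and Mnt in 8 groups, with colour and symbol for the replicate number. Replicate 2 is highest for Mxd1 in every group, replicate 1 is lowest for Mxd3 and replicate 3 is lowest for Mnt.

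Across the 24 libraries the members did not move as a block. Myc correlated with Max at a Pearson r of 0.29 and with Mlx at 0.43, and Mxd1 with Mnt at 0.51, or 0.82 after the mean of each replicate number was removed. Mxd1 with Mxd3 gave 0.40, and -0.24 after that removal. The 3 protein-coding genes most like Myc, by Pearson r of log2(CPM + 1) over 24 libraries, were Hspa8 (0.80), a constitutive HSP70 chaperone, Zpr1 (0.78), a zinc finger protein, and Sqle (0.77), the squalene epoxidase of cholesterol synthesis. These values describe libraries that share depth, group and replicate number.

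Genes around the network were read as lists, taken from general knowledge and described by counts and medians. The lists were chosen with earlier results of these data known, so their leaning is a description only. Canonical MYC targets (ribosome biogenesis, nucleotide and amino acid metabolism, cell cycle) leaned lower in hairpin cells. In SH against NC, 9 of 57 fell and 1 rose, with a median log2 fold change of -0.21; over all genes 505 of 12183 fell and 600 rose, with a median of 0.00. In SH_E2 against NC_E2, which shares no library with the first, 9 fell and 1 rose, with a median of -0.21. Of all genes, 522 fell and 646 rose. The 9 and the 1 were the same genes. Both comparisons set hairpin cells against control-vector cells, so the second is not a separate test of the hairpin. With the replicate block 23 and 22 fell and 2 rose in each, against 1237 and 1274 of all genes that fell and 1335 and 1393 that rose. Rrp12, a factor for ribosome subunit export, fell by 0.66 and 0.75 (edgeR, log2), from 33.0 ± 0.364 FPKM in NC to 21.8 ± 0.844 in SH (SD, n = 3). Gnl3, the nucleolar GTPase nucleostemin, fell by 0.47 and 0.34, and Polr3d, an RNA polymerase III subunit, by 0.42 and 0.41. Phgdh, the first enzyme of serine synthesis, was the gene that rose, by 0.96 and 0.89, from 151 ± 6.29 FPKM in NC to 306 ± 36.0 in SH. Myc itself did not pass in these comparisons.

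Genes that MYC is known to repress also leaned lower. Without E2, 3 of 12 fell and none rose (median -0.28), and with E2 the same 3 fell and 1 rose (median -0.27). With the block 6 fell in each, and 1 and 2 rose. Klf6, a zinc finger factor, fell by 1.94 and 2.04 on the log2 scale, from 50.8 ± 11.8 FPKM in NC to 13.8 ± 3.53 in SH (SD, n = 3). Ndrg1, a stress-response gene, fell by 1.21 and 1.30, and Itgb1, the integrin beta-1 subunit, by 0.35 and 0.42. Pdgfrb, a growth factor receptor, was the gene that rose in SH_E2 against NC_E2, by 0.88. Both activated and repressed MYC targets thus held more genes that fell than rose.

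Each of the other lists had at most 2 called genes in either comparison, where 9.07% and 9.59% of all genes were called, and with so few genes a list these counts are not read against that share. Of 21 cofactor and SIN3 genes, Sin3b rose by 0.39 and Ruvbl2 fell by 0.33 without E2, and Ruvbl2 alone passed with E2, at -0.40; with the block 2 rose and 2 fell in each comparison. Trrap, the MYC acetyltransferase scaffold (0.22 ± 0.28, SE), and Sin3a, the corepressor scaffold of the MXD proteins (0.01 ± 0.17), did not pass without E2. Of 20 turnover genes, Fbxw7, the ubiquitin ligase receptor for MYC, fell by 0.72 without E2, where the block called 1 that rose and 3 that fell, and with E2 0 passed in edgeR, 2 being at an unadjusted p under 0.05 and 1 called with the block. Of 14 upstream genes, Foxo3 rose by 0.54 and 0.48, and with the block 1 and 2 rose. Of 7 MondoA-MLX and ChREBP-MLX targets, Txnip, the glucose-induced thioredoxin inhibitor, rose by 1.61 and 1.38, from 36.5 ± 6.12 FPKM in NC to 116 ± 81.1 in SH (SD, n = 3), so its hairpin replicates differed widely. With the block 1 target rose without E2, and 2 rose and 1 fell with E2. Of 13 subunits of the MGA polycomb complex, 0 passed in edgeR in either comparison, with 1 at an unadjusted p under 0.05 in each and 1 called with the block in each. Of 20 germline genes that this complex silences, only 3 were abundant enough to test; Tdrkh rose by 1.03 and 0.81, and Zbtb32 fell by 0.71 and 0.61, with 1 that rose and 2 that fell in each comparison with the block. E2 over the 4 arms called 0 genes in every list in edgeR, with or without the block, and without it 2 list genes had an unadjusted p under 0.05, 1 among the cofactors and 1 among the upstream genes.

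**Figure D5:**
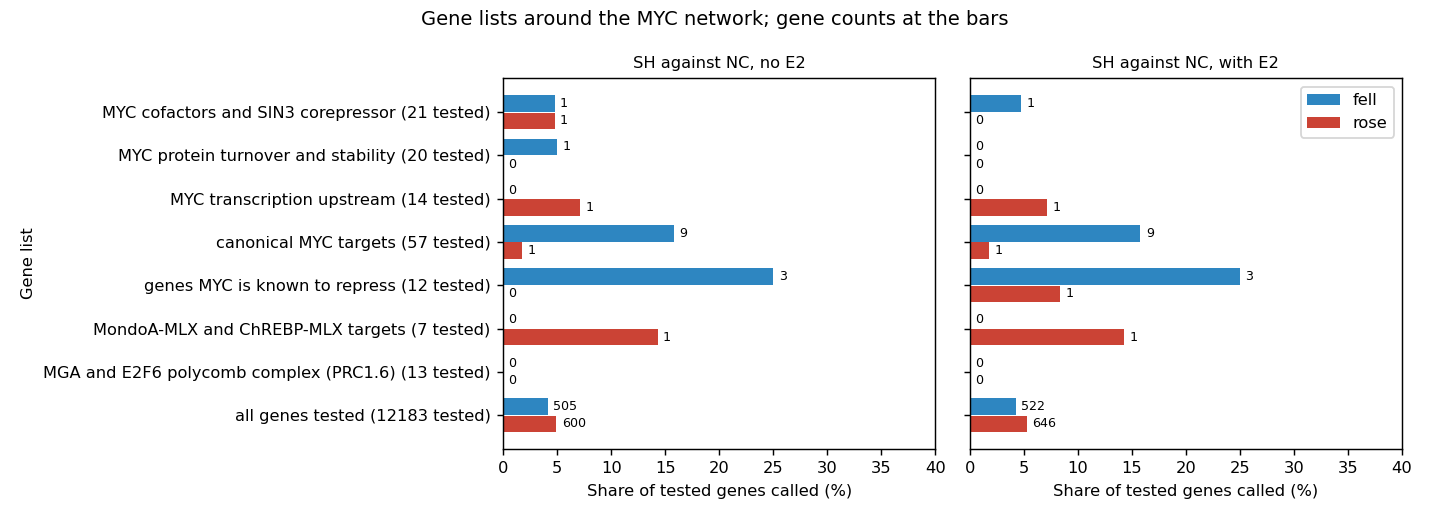
Share of tested genes (%) that fell (blue) or rose (red) in SH against NC without E2 (left) and with E2 (right), for 7 lists of at least 5 tested genes and for all 12183 genes, with gene counts at the bars. Canonical MYC targets have 9 genes that fell and 1 that rose in each panel.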

How the data were processed

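RNA-seq of 24 P815 libraries was used. Reads were processed with cutadapt and HISAT2 on GRCm38, per the submitters' processing notes. Not given in the sources used here are versions, quantifier, annotation and strand setting. The deposited table holds FPKM and estimated counts per gene, made by the authors. Low count values gather at multiples of 4, so the deposited counts were rounded and handled like the estimated output of a quantifier; dividing them by 4 was an alternative. Libraries held 42059008 to 68793278 counts.

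Genes with at least 1 FPKM in at least 3 libraries (12183) were fitted with edgeR 4.0.16 in R 4.3.3 (TMM, quasi-likelihood, 1 coefficient per group), with Benjamini-Hochberg adjustment over all of them and a threshold of 0.05. Alternatives were DESeq2 1.42.0, limma 3.58.1 on log2(FPKM + 1) and log2(FPKM + 0.1), RLE scaling, no filter, a replicate block, replicates 2 and 3 only, the libraries of a comparison only, and leaving out each library. The scripts were run on simulated data with less spread between libraries than here and no effect of the replicate number. That run checked the code and not its performance on these libraries. Same-numbered libraries deviated together: over the pairs of groups compared, SH with NC across E2 included, all 42 correlations of deviations from the group means were over 0.1 (lowest 0.13), so numbers pair the samples there and blocked values are printed where they change a call. In SH against ICI and Tamo, 21 of 24 were.

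All 10 members are named. Of each list, up to 4 genes that passed are named by smallest adjusted p, with Trrap, Sin3a, Txnip and Esr1 as values; Psmc3ip and Prelid1 were added after their values were seen. Members and lists were chosen with earlier results of these data known.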

Additional observations from a re-analysis of the deposited data

How the results depend on the processing

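Counts of members called changed as follows. In SH against NC, 0 became 1 with DESeq2 and 2 with the replicate block. In SH_E2 against NC_E2, 0 became 1 with the replicate block. In SH against ICI and Tamo, 1 became 0 without the low-value filter (Mlx adjusted p = 0.0673), 0 with replicates 2 and 3 only (0.288) and 3 with the replicate block, where 41.8% of all genes were called: Mxd1 (-0.70, adjusted p = 6.73e-07), Mnt (-0.28, 0.00178) and Mlx (-0.41, 0.0104). Without the block, leaving out single libraries there gave 0 to 2. Over both E2 conditions, SH against NC gave 3 with the replicate block and 0 with replicates 2 and 3 only (Mlx adjusted p = 0.0749). The replicate number called 3 to 5 members over its leave-one-out fits and the fit without the SH groups, which gave 3. The cause of these changes was not tested, beyond fewer samples where libraries were left out. Single libraries were left out within each comparison only. The replicate block changed no other count of members called. Every comparison not named here kept 0 members called under each alternative run, and no called value changed sign. Uncalled Myc values changed sign under 2 alternatives in SH_E2 against NC_E2 and 2 in Tamo against NC. Depth limits Mycn and Mycl, whose counts allow no comparison.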
